A study of Mus musculus with 3 samples.

Results

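Small RNA reads that carried an added adenosine (A) at their 3′ end were examined in MIN6 cells, a line derived from a mouse insulinoma and used as a model of the insulin-secreting beta cell. A 5′ start, that is, a genomic position and strand where reads begin, was kept when it held at least 200 reads of 16 to 27 nt over the 3 libraries, when reads whose last base was an A that mismatched the genome made up at least 2% of them, and when these A-ending reads were at least as many as the reads ending in a mismatching T. Of 2308 starts with enough reads, 221 met this rule (9.58%), 46 of them assigned to miRNA hairpins. The other 175 lay in other RNAs or could not be named. Because the rule itself used the A-ending reads, their shares describe the chosen starts, and no test was made of them. All 3 libraries are replicates of MIN6 cells cultured at 25 mM glucose in DMEM with heat-inactivated fetal bovine serum, so no comparison between conditions exists. No genetic change or drug is named for these libraries in the sources used here. A tumor-derived line stands in for beta cells here. The study annotates the libraries as biological replicates, but separate cultures are not stated in the sources used here, so the spread between them may be technical.

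Small RNAs can be extended after they are cut, by terminal nucleotidyltransferases that add bases not encoded in the genome, most often A or U. On miRNAs, single adenosines are added by enzymes such as GLD-2, and adenylation is known from miR-122 in liver, where it goes with stability of the miRNA, and from miR-21, where PAPD5 adds the base before trimming. Adenosines added to the 3′ ends of 7SL RNA, Y RNA and other structured RNAs are known as steps of their maturation or decay, mitochondrial transcripts receive A tails, and every tRNA receives a CCA end. Because sequencing reads such a base as a mismatch, an added A is visible only where the next base of the genome is not itself an A, and an added U only where it is not a U (T in DNA).

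The sequences of starts on which the results turn are shown first, to give the end that carried the A. Each line gives the templated bases up to the end most often followed by the A, with the added bases in capitals at the 3′ end, and for the miRNAs the seed (bases 2 to 8) in capitals as well. miRNA letters are from RefSeq hairpins and the others from GENCODE transcripts, both of GRCm38, while genome positions in the text are those of the deposited alignments on mm9. Arms that had no mature entry in the RefSeq table are named by hairpin and arm, and their starts are counted from the most-read start.
miR-125b-5p: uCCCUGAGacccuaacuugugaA
Mir28a 5p arm: aAGGAGCUcacagucuauugagA
miR-483-3p: uCACUCCUccccucccgucuugA
miR-370-3p: gCCUGCUGggguggaaccugguA
Mir532 5p arm: cAUGCCUUgaguguaggaccguA
miR-325-5p: cCUAGUAGgugcucaguaagugA
Mir383 5p arm, start shifted by -1: cAGAUCAGaaggugacuguggcA
miR-128-3p: uCACAGUGaaccggucucuuuA
let-7b-5p: uGAGGUAGuagguugugugguuA
let-7d-5p: aGAGGUAGuagguugcauaguuA
miR-183-5p: uAUGGCACugguagaauucacugA
miR-183-5p, start shifted by +1: aUGGCACUgguagaauucacugA
Mir455 3p arm, start shifted by +1: cAGUCCACgggcauauacacCA
mt-Tv, 3′ end: ugaccaaugaacacucugaCCA
Rn7s2, 3′ end: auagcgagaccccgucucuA
Rny1, 3′ end: uucucacuacugcacuugacuagucuA
The last base of the templated part was a G, a U, an A or a C in these examples, and the added A was a single base in all of them except the CA after Mir455 and the CCA after mt-Tv, the mitochondrial tRNA for valine.

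The libraries held 9269795 to 10816006 mapped reads, of which 87.5% to 88.2% were 16 to 27 nt long. A-ending reads made up 1.77% ± 0.03 (SD, n = 3) of the 16 to 27 nt reads and T-ending reads 5.36% ± 0.25. The miRNAs expected in beta cells ranged widely in abundance. miR-375 was at 365681 ± 19119 RPM (reads scaled to the mapped reads of the library, SD, n = 3). miR-182-5p was at 36984 ± 2196 RPM and miR-183-5p at a mean of 6339 RPM. Lower means were found for miR-7a-5p (404.9 RPM) and miR-184-3p (137.2 RPM). miR-184-3p thus lay below miR-9-5p, a miRNA of neurons, which was at 281 ± 2.42 RPM. None of the other marker miRNAs of liver, muscle, blood cells, fibroblasts, acinar pancreas or neurons had a start with 200 reads assigned to it. A hairpin that could not be placed would be missed, since 1402 starts outside the mitochondrial genome stayed unnamed. The 221 starts held 2.19% of the 16 to 27 nt reads and 6.68% of all A-ending reads. Most A-ending reads therefore lay elsewhere, and 46.7% of them were at the 4 starts of the miR-375 3p arm. At the main miR-375 start, 1.96%, 2.04% and 1.99% of the reads of replicates 1, 2 and 3 ended in A. T-ending reads outnumbered these 214558 reads at 342906. The most abundant miRNA of these cells thus lay just below 2% of all reads and did not meet the condition on T. Among the 82.3% of its reads whose templated part was followed by a base other than A, 2.41% ended in A. Reads ending in a mismatching G made up 16.4% of this start.

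The rule was met on the sum of the libraries, and it held in each library separately at 159 of the 221 starts, in 2 libraries at 40 and in 1 at 22. Among the 46 starts in miRNA hairpins it held in every library at 34. Several starts share reads, because a read matching several loci was divided among them, and the 221 starts had 185 distinct read profiles. Counting error was large at many of them, since 83 had fewer than 20 A-ending reads over all libraries, 11 of these in miRNA hairpins. The median A-ending share was 3.81% over the 221 starts (range 2.00% to 93.6%) and 3.58% over the 46 in miRNA hairpins (2.01% to 17.7%), beside 0.20% over all 2308 starts and 1.24% over all 509 miRNA hairpin starts.

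**Figure D1:**
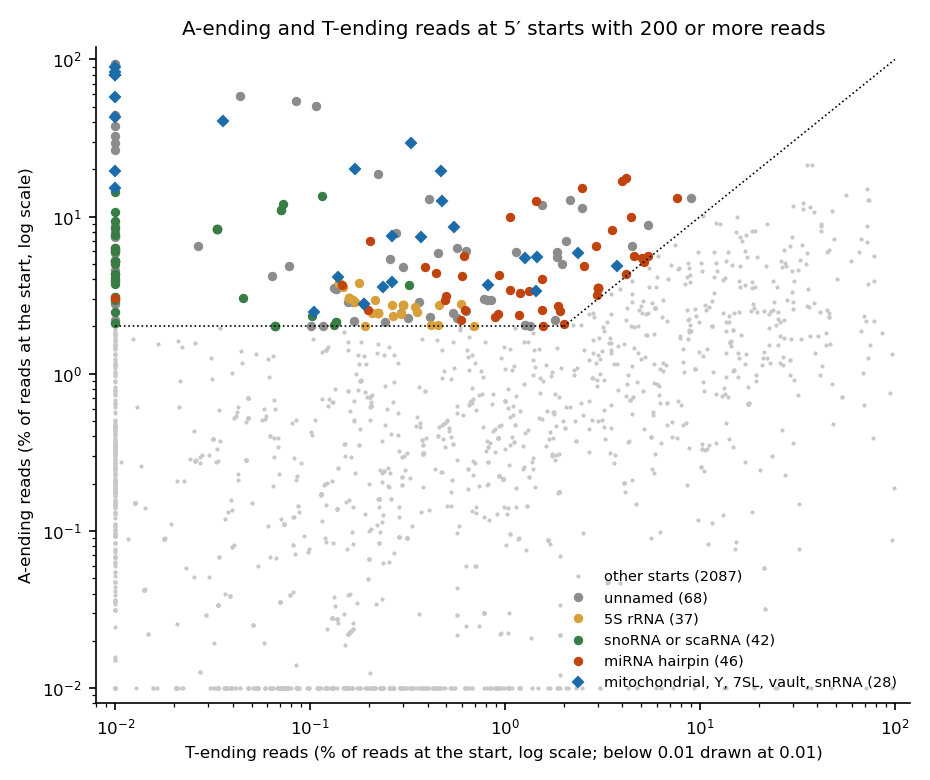
Share of A-ending reads (y axis) against share of T-ending reads (x axis), in percent of the reads at a start and both on log axes with values below 0.01 drawn at 0.01, for the starts with 200 or more reads; colours mark the chosen starts by class of RNA, grey dots the other 2087, and dotted lines the rule. The 46 chosen miRNA starts reached up to 17.7% A and lay close to the diagonal more often than the other classes, whose T-ending shares were low.

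Among the starts assigned to miRNA hairpins, 9.04% met the rule, that is 46 of 509, from 38 hairpins and 39 arms. On 5p arms 28 of 233 starts met it (12%) and on 3p arms 16 of 264 (6.06%), and 2 further starts were classed only through reads identical to those of the miR-465 hairpins. This order came from the condition on T, since without it 72 starts on 5p arms and 100 on 3p arms had 2% or more A-ending reads. Starts on 3p arms had the higher median shares of both bases, at 1.37% A and 10.4% T compared with 1.08% A and 2.30% T on 5p arms. In all, 176 miRNA starts (34.6%) reached 2% A and 335 (65.8%) reached 2% T. The highest A-ending share of any miRNA start belonged to miR-152-3p, which was not chosen because its 21.3% ± 0.44 A (SD, n = 3) was exceeded by T-ending reads at 35.4%. Thus the chosen starts are those where A prevailed over T, and not those with the most A.

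The base that follows the tailed end in the genome differed accordingly. Of the 44 chosen starts with a known sequence, the base after the commonest tailed end was U in 32 (72.7%), G in 8, C in 4 and A in 0. Over all 465 miRNA starts with such a base it was U in 199 (42.8%), and over the 127 that reached 2% A but had more T-ending reads it was U in 29 (22.8%). A U added before a templated U matches the genome and is not counted as T-ending, so at those ends the T-ending reads leave out such additions. How many of the 46 starts would have failed the condition on T if such additions were visible was not tested.

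miR-125b-5p, a miRNA transcribed from a pair of loci, had the highest A-ending share of the chosen miRNA starts. At the Mir125b-2 locus (chromosome 16, position 77646524) it was 17.3%, 18.3% and 17.3% in replicates 1, 2 and 3, and at Mir125b-1 (chromosome 9, position 41390023) 16.7%, 17.5% and 16.4%, with Wilson 95% intervals at Mir125b-1 that spanned 13.7% to 20.2% over the libraries. Both loci share nearly all of these reads, so they are a single observation. The replicates lay close together, and the start at Mir125b-2 held 385.5 A-ending and 91 T-ending reads. Reads of the templated end at base 22 carried the A in 33.1% ± 1.84 of cases (SD, n = 3, of exact and A-ending reads with that end), against 0.60% ± 0.23 at base 20 and 0.34% ± 0.31 at base 21. The start shifted by +1, which ended at the same templated base, carried it in only 6.04% ± 0.43 there and in 4.37% of all its reads. At the +1 start reads ending in a mismatching G, 149.5 at each locus, outnumbered the 59 A-ending reads at Mir125b-1 and 60 at Mir125b-2. With whole-number values alone, the reference start had 33.8% at Mir125b-2 and 29.4% at Mir125b-1, and the +1 start 0.89% and 0.72%, below 2%. Shares at a single end, here and below, count A-ending reads with an internal mismatch but only exact reads without one, which raises them. Such A-ending reads made up a median of 14.6% per chosen miRNA start.

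Mir28a 5p arm, from a hairpin in an intron of the Lpp gene, had 13.1%, 12.3% and 12.3% A-ending reads (chromosome 16, position 24827954), and the Wilson intervals of the libraries overlapped, from 10.9% to 14.7%. Of its 677.5 A-ending reads, nearly all followed base 22, where 28.4% ± 2.01 carried an A, and only 2.29% ± 1.20 did at base 21. An internal mismatch was present in 27.8% of its A-ending reads, so the share at base 22 runs high. Nearly all tails were a single A (98.5%). miR-325-5p had a lower share over all reads, 7.27%, 6.57% and 7.11%, but a higher one at its tailed end, 35.5% ± 2.40 at base 22, and 0.07% ± 0.12 at base 21, which was its commonest exact end. Every one of its 173 A-ending reads had a single-base tail, and only 5 reads ended in T. Whole-number values held 95.3% of its reads, but with these alone its share was 2.67%. Most of its A-ending reads, and so most tails at base 22, were thus divided between loci.

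miR-370-3p, encoded in the imprinted Dlk1-Dio3 region, had 10.1%, 9.34% and 10.3% A-ending reads (chromosome 12, position 110856515). Its 131 A-ending reads compared with 14 T-ending reads. Mir532 5p arm, from an X-linked hairpin cluster, had 9.15%, 8.64% and 6.84%, with 688 A-ending reads, and its tails followed base 21 at 21.7% ± 3.85 and base 22 at 7.36% ± 1.41, so that replicates of this start spread more widely. Multi-base tails made up of A only reached 16.03% of the A-ending reads of miR-370-3p and 16.3% of those of Mir532. miR-483-5p, encoded in an intron of Igf2, was at 5.86%, 7.01% and 3.92% from 52 reads, with wide Wilson intervals (2.26% to 10.2% over the libraries), and met the rule in 1 library only because T-ending reads were 50.

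**Figure D2:**
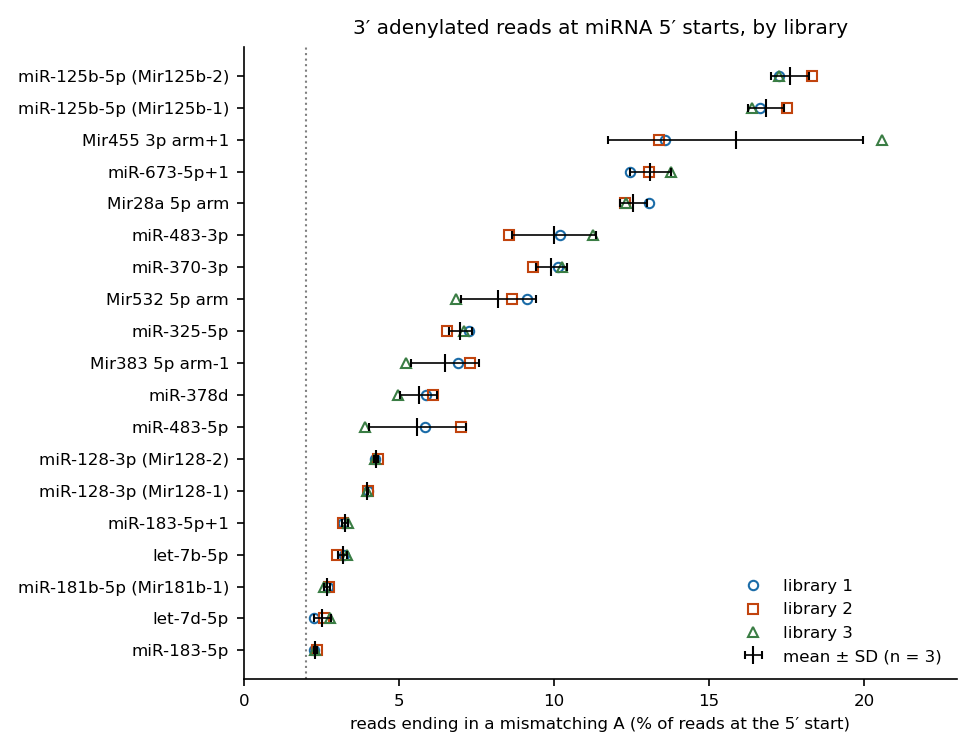
A-ending share (percent of the reads at a start, x axis) of the chosen miRNA starts with the highest shares or the most A-ending reads, with a point for each library, the mean ± SD (n = 3) as bars and the 2% threshold dotted. miR-125b-5p lies highest at 16.4% to 18.3%, and most starts spread little between libraries, while Mir455 3p arm, start +1, ranges from 13.4% to 20.6%.

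The starts with the most A-ending reads had low shares. miR-183-5p, a miRNA of sensory and neuroendocrine cells from a cluster with miR-96 and miR-182, held 138390 reads, of which 2.26%, 2.36% and 2.29% ended in A, with Wilson intervals that together span 2.13% to 2.49%. Of its A-ending reads 84.1% followed base 23, where 6.39% ± 0.10 of the reads carried it, although its commonest exact end was base 22, where 0.47% ± 0.11 did. miR-96-5p of the same cluster had 3.12%, 3.20% and 3.05%, most of it at base 21. No start of miR-182-5p, the most abundant member of the cluster, was among the chosen ones.

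let-7b-5p and let-7d-5p, members of the let-7 family of miRNAs that restrain growth genes, were the 2 of 31 let-7 and miR-98 starts to meet the rule. For let-7b-5p 3.23%, 3.02% and 3.32% of reads ended in A, and A-ending exceeded T-ending reads narrowly in each library (707 against 677, 1118 against 1040 and 785 against 720). let-7d-5p, at 2.25%, 2.58% and 2.78%, instead had 439 A-ending and 34 T-ending reads. Both carried the A mostly at base 22, at 4.63% ± 0.30 for let-7b-5p and 3.58% ± 0.49 for let-7d-5p. miR-181b-5p at the Mir181b-1 locus had 2.71%, 2.76% and 2.59%. Its A was spread over several ends, from 29.7% ± 6.54 of the few reads ending at base 21 to 3.31% ± 0.03 at base 22 and 1.21% ± 0.26 at base 23. Reads ending early on this arm were thus more often tailed than those ending late.

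miR-128-3p, a brain-enriched miRNA with copies on chromosomes 1 and 9, carried many multi-base tails. Its shares were 4.24%, 4.34% and 4.23% at Mir128-2 and 4.0%, 4.01% and 3.96% at Mir128-1, whose reads are largely the same. Here AA made up 23.9% and 26.2% of the A-ending reads and AAA 3.56% and 3.35%. miR-433-3p had 53.4% single-base tails among 133 reads, the lowest share among the chosen miRNA starts with over 100 A-ending reads, other than Mir455 and miR-378d.

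At Mir455 3p arm and miR-378d the A often followed an added C. On the Mir455 3p arm the start shifted by +1 had 13.6%, 13.4% and 20.6% A-ending reads, only 43 reads in all, of which 90.7% had the tail CA, and the main start had 3.61%, 3.56% and 3.01% with 42.0% CA. Counting only tails of A, these starts had 1.41% and 1.90%, below 2%. miR-378d (5.87%, 6.10% and 4.97%) had 58.3% CA, but only 16.9% of its reads matched exactly, and 1785.5 reads ended in a mismatching C. Near-identical miR-378 copies exist, so its identity is uncertain. C-ending reads exceeded A-ending reads at 2 of the 46 starts, namely miR-378d and the main Mir455 start. G-ending reads did so at 2 others, the +1 starts of miR-125b-5p at Mir125b-1 and Mir125b-2, which share nearly all reads. A was the commonest of A, C and G at 42.

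In length, A-ending reads of the chosen miRNA starts were a median of 22.97 nt and exact reads 21.9 nt, with a templated part of 21.9 nt. The A-ending reads were longer than the exact reads at 43 of 46 starts, by a median of 1.12 nt. All 509 miRNA starts gave 22.9, 21.8 and 21.7 nt and a median gain of 1.05 nt, so that the A came on top of reads of usual length in both. The commonest tailed end was base 22 in 26 of the 46 starts, base 21 in 12, base 23 in 4 and base 20 in 3. It was the commonest exact end in 30 of the 46, a shorter one in 12 and a longer one in 3. Over the 477 miRNA starts with any A-ending read the counts were 214, 179 and 82. Where RefSeq gives a mature end, the tailed end fell on it at 24 of 38 chosen starts and at 174 of 399 miRNA starts. The last templated base was G in 16 of 44 starts, U in 12, A in 9 and C in 7, compared with 127, 114, 122 and 105 of 468 over all miRNA starts. Most of these starts had 1 leading end, since a median of 87.9% of the A-ending reads followed it, compared with 72.0% over all miRNA starts.

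**Figure D3:**
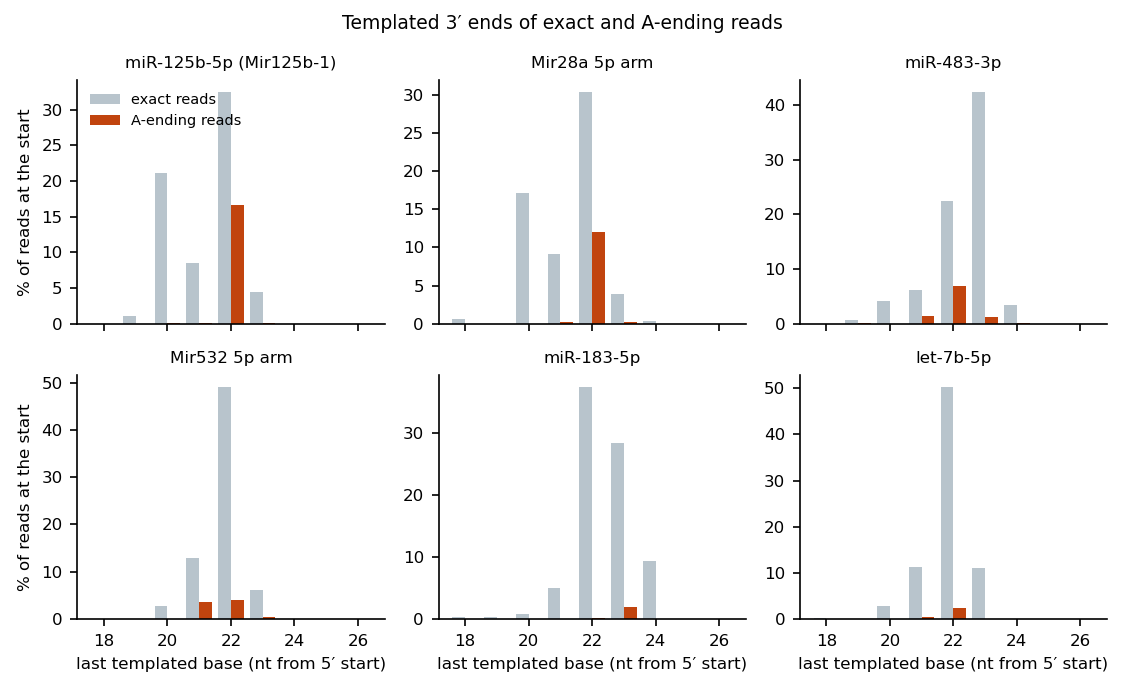
Exact reads (grey bars) and A-ending reads (red bars) by their last templated base, counted from the 5′ start (x axis), as percent of all reads at the start summed over the 3 libraries (y axis), for 6 miRNA starts. At miR-183-5p the exact reads peak at base 22 but the A-ending reads at base 23, whereas at miR-125b-5p both peak at base 22.

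The added A can be compared between 5′-isomiRs, starts of the same arm shifted by a few bases, which have different seeds. On 18 arms a chosen start had another start with 200 or more reads beside it, and of the 37 starts on these arms 24 met the rule. Each arm was taken because it held a chosen start, so this count was largely fixed in advance. It cannot be set against the 9.04% of all miRNA starts that met the rule. The commonest tailed end was the same genomic base for all starts of an arm on 16 of the 18 arms, among which the miR-465 hairpins with identical reads count as 3 and the Mir125b copies, which share nearly all reads, as 2. At miR-483-3p the reference start had 10.2%, 8.56% and 11.3% A-ending reads, and the start shifted by +1, with 10403 reads the more abundant of the pair, had 1.68%, 1.60% and 1.47%. Where both ended at the same templated base, however, the shares differed by less than their spread, 23.5% ± 3.18 for the reference and 23.4% ± 1.43 for the shifted start. The shifted start was mostly cut 1 base further on, at an end where 0.50% ± 0.08 of its reads and 2.62% ± 0.61 of the reads of the reference start carried an A.

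Other arms did not have equal shares at the shared end. The Mir383 5p start shifted by -1 had 6.91%, 7.29% and 5.24%, compared with 0.84%, 0.82% and 1.04% at the main start, and at the end that was tailed most from the -1 start 70.4% ± 8.02 and 19.1% ± 7.60 of reads carried an A, from 185 and 29 A-ending reads. For miR-183-5p the start shifted by +1 had the higher share, 3.20%, 3.22% and 3.37%, and 8.27% ± 0.18 at the shared end against 6.39% ± 0.10 at the reference start. However, 27.4% of the A-ending reads at +1 and 14.8% at the reference start had an internal mismatch. The difference at the shared end without such reads was not tested. For miR-125b-5p the reference start had the higher share, as given above. The +1 start of miR-673-5p had 12.5%, 13.1% and 13.8% from 38 A-ending reads, and its reference start, which had 9.13% A and 12.1% T, was not chosen. On the miR-152-3p arm the start shifted by -1 was chosen with 14 A-ending and 14 T-ending reads.

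**Figure D4:**
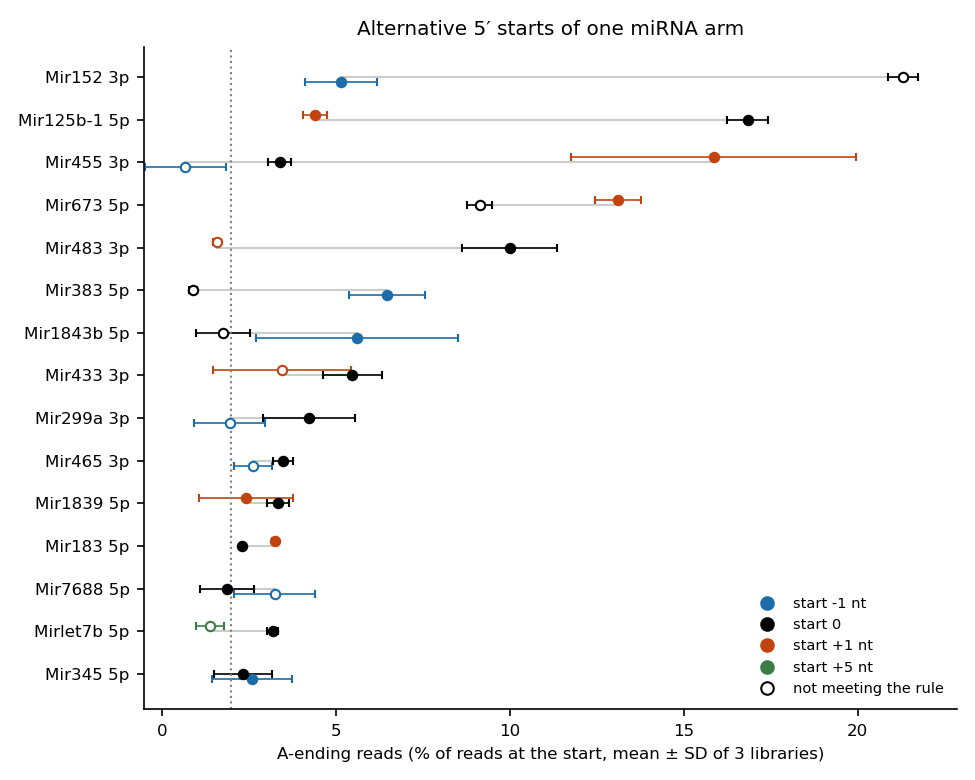
A-ending share (percent of the reads at a start, mean ± SD of 3 libraries, x axis) of neighbouring starts on the same arm, coloured by their shift, filled where the rule was met and open where not; hairpin copies that share their reads are drawn once. miR-483-3p lay at 10.0% at its reference start and at 1.58% at +1, whereas miR-183-5p was higher at +1.

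The remaining chosen miRNA starts had low shares and few A-ending reads. miR-1839-5p had 3.05%, 3.32% and 3.66% from 139 reads, miR-423-5p 2.78%, 2.25% and 2.51% from 90, and miR-494-3p 3.83%, 5.34% and 5.15% from 49. Several of the others, such as miR-345-5p (3.28%, 1.85% and 1.84%) and miR-379-3p (1.5%, 1.54% and 3.32%), passed 2% in some libraries only. The start in the Mir6236 hairpin stood apart, because none of its 203 reads matched exactly.

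Few seeds were shared among the chosen miRNA starts. The groups were miR-465a-3p, miR-465b-3p and miR-465c-3p, whose reads are identical, miR-200a-5p with miR-200b-5p, let-7b-5p with let-7d-5p, and the copies of miR-128-3p and of miR-125b-5p. miR-200a-5p had 4.98%, 2.98% and 3.07% from 25 reads and miR-200b-5p 7.59%, 1.35% and 5.71% from 21, a difference smaller than the spread between libraries. Counts by family stand beside 9.04% of all miRNA starts that met the rule, and whether any family departs from that share was not tested. In the miR-125 family 4 of 7 starts met it, all on the miR-125b-5p arm of Mir125b-1 and Mir125b-2, which share nearly all reads. So did 3 of 7 starts of the miR-183 cluster, 1 of 8 miR-28 family starts, 1 of 9 miR-181 starts and 1 of 12 miR-148 family starts. None did of 21 miR-30, 7 miR-29, 8 miR-26, 8 miR-15 or miR-16 family or 6 miR-7 starts. The miR-376 family (1 of 6 starts), the miR-17 family (1 of 7), miR-99a with 1 of 1, the miR-127 group at the imprinted Rtl1 gene (1 of 21) and the miR-465 group on the X chromosome (3 of 14) had members too. As a reference, miR-21a-5p, known for adenylation, had 0.89%, 0.91% and 0.86% over all reads and 5.47% ± 0.08 at base 23. No start with 200 reads was assigned to miR-122-5p. Expression set the chosen miRNA starts little apart, with a median of 44.3 RPM compared with 43.1 RPM over all miRNA starts.

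Outside the assigned miRNA hairpins 175 of 1799 starts met the rule (9.73%), and whether unplaced miRNA hairpins are among the unnamed ones was not tested. There A-ending reads stood against few T-ending reads, with a ratio of A to T of 24.5 over the pooled reads compared with 2.166 over the chosen miRNA starts. By class of RNA, the chosen starts were 42 in snoRNAs or scaRNAs (29.8% of the starts of that class), 37 in 5S rRNA (20.2%), 7 of 10 in Y RNAs, 4 of 9 in 7SL RNA, 2 of 29 in snRNAs, 1 of 2 in vault RNA, 4 of 7 in mitochondrial tRNAs, 6 of 9 in mitochondrial rRNAs, 4 of 4 unnamed ones on the mitochondrial genome and 68 of 1402 unnamed ones elsewhere. Many of these starts are copies that share reads, mostly in 5S rRNA, where 37 starts had 21 profiles.

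Several classes carried the A at or near the 3′ end of the mature RNA. The 7SL RNA, the RNA of the signal recognition particle that guides secretory proteins to the endoplasmic reticulum, had the clearest case: at Rn7s1 79.7%, 80.8% and 77.5% and at Rn7s2 79.7%, 80.8% and 78.0% of the reads ended in A, the tail followed base 299 of 300, and 99.1% of tails were a single A. Exact reads made up only 4.9% at each. Both starts held 342.4 A-ending reads and share nearly all of their reads, so they are a single observation. Rny1, a Y RNA that is bound by the Ro60 protein, had 25702 reads with 4.47%, 3.31% and 2.95% A, most often following base 109 of 112 (chromosome 6, position 47738096), and single-base tails made up 97.7%. With reads of every deposited length the share of Rny1 was 10.4%. At the 3 Rny3 starts with the most A-ending reads the commonest tailed end was base 99 of 102, which held 56.3%, 42.3% and 43.4% of those reads, with 5.84%, 6.47% and 5.19% at the start with the most A-ending reads among them. The chosen 5S rRNA starts had 2.91% A over the pooled reads, with 97.7% single-base tails.

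At the 3′ end of mt-Tv nearly every read ended in A. The start at position 1075 of the mitochondrial genome had 93.6%, 87.5% and 86.6%, and the start at 1072 had 82.2%, 84.6% and 83.9%. These reads continued past the annotated tRNA end with a mismatching C, a base matching the genome and a mismatching A, where the mismatches seen at the middle position leave C, so that CCA followed the tRNA in 86.8% of the reads at 1075 and in 83.1% at 1072. Here the A is the last base of the CCA end that every tRNA carries, and it lies outside a plain A tail.

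Other mitochondrial starts and snoRNAs had longer tails, of A only or mixed with C. On the minus strand of the mitochondrial genome, the start at position 16188 held 10253 reads, of which 41.5%, 42.2% and 38.8% ended in A, and its tails were A (63.5%), AA (13.4%), ACA (6.12%) and CCA (4.33%). The start at 3771 on the same strand had 33.4%, 20.7% and 32.7%, with AA in 20.1% and AAA in 8.39%, and at mt-Rnr2, the large mitochondrial rRNA, the start at 2238 had 61.8%, 56.2% and 55.8%, or 34.5% pooled when only tails of A were counted. Over the mitochondrial rRNA starts 52.2% of tails were a single base, the lowest of the classes. Among snoRNAs, Snord55, a guide RNA for ribose methylation of rRNA, had 9.54%, 15.3% and 15.2% A, with tails of A (63.2%), AA (20.5%), AAA (10.3%) and AAAA (5.13%). The commonest templated end of its A-ending reads, with 39.3% of them, was base 19 of the 79-base RNA, inside it. With reads of every deposited length its share was 3.28%. Gm25894, also annotated as a snoRNA, had 13.4%, 10.4% and 12.6% with 27.3% AA, and its pooled share was 4.42% at 18 to 25 nt. Snord14c and Snord14d, which share their reads, had 10.6%, 12.8% and 9.45%.

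**Figure D5:**
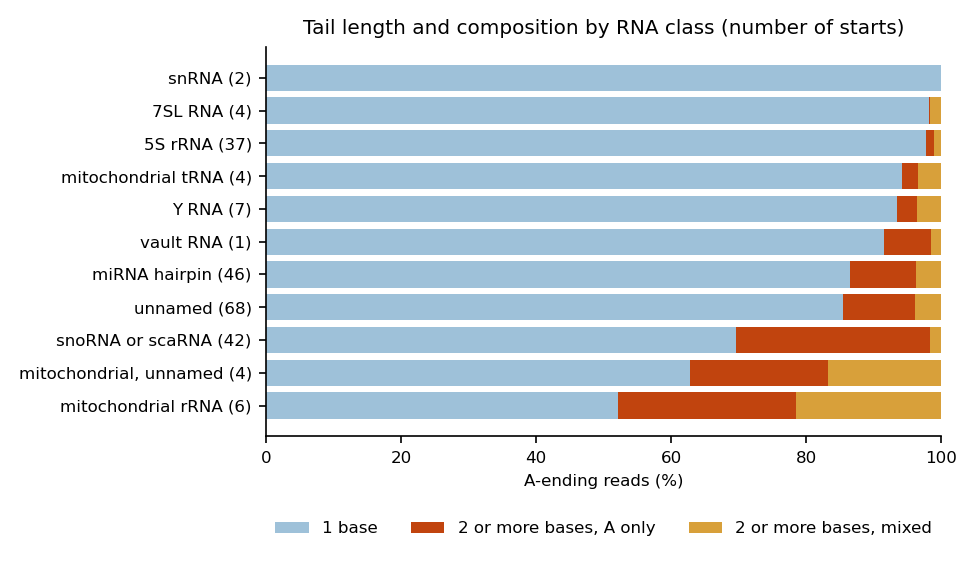
Tails of A-ending reads at the chosen starts by class of RNA (number of starts in brackets), as stacked percentages from 0 of tails of 1 base, of 2 or more bases of A only, and of 2 or more mixed bases. Single-base tails made up 98.2% in 7SL RNA, 97.7% in 5S rRNA, 86.5% in miRNA hairpins, 69.6% in snoRNAs or scaRNAs and 52.2% in mitochondrial rRNA.

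Over all chosen starts 82.9% of the A-ending reads had a single mismatching base at the end, 11.6% a longer tail of A only and the rest a mixed tail. For the miRNA starts 86.5% ± 0.77 (SD, n = 3) were single and 9.84% were longer and of A only, and AA (9.19%) was far more common than CA (1.78%) or GA (0.80%). The number of mismatches the alignment allowed rose with read length, from 1 at 16 to 18 nt to 2 at 19 to 23 nt and 3 above, besides 1 inside the read. Tails of several bases could therefore be seen mainly on longer reads, and shares of single-base tails depend on read length.

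Not every chosen start held plain tailed reads. At 24 starts (23 profiles, 17 without a named RNA) fewer than 10% of the reads matched exactly, and at 21 of these over 50% of the A-ending reads also had a mismatch inside the read. Their median A-ending share was 35.2% and they held 19.6% of the A-ending reads of all chosen starts. The pair with the highest share, at position 42303981 of chromosome 10 and 122563843 of chromosome 8 on the minus strand, shared all reads and had 93.6%, 95.8% and 92.8%, none of them exact. The start at 139299926 of chromosome 5 had 57.2% and 51.9% in replicates 2 and 3 and no read in replicate 1, and that at 129089775 of chromosome 3 had 29.6% in replicate 1 and no read in the others. Others were more even between libraries, such as the start at 139282216 of chromosome 3 (61.1%, 58.3% and 54.8%, 1340 A-ending reads) and that at 15669325 of chromosome 15 (36.3%, 37.1% and 39.7%). Without reads that also had an internal mismatch, the start at 139282216 had 3.14% and no A-ending read was left at the others named here. Which RNA the reads at these unnamed starts came from was not tested. The 24 also took in the Rn7s1, Rn7s2 and mt-Tv starts described above, so leaving them out drops those named 3′ ends too. Without these 24 starts, 197 remained, with a median of 3.66%.

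Unnamed starts with mostly exact reads had A tails as well. The start at 122201319 of chromosome 2 (minus strand) had 12.7%, 13.0% and 12.9% A with 82.8% exact reads, but 2.48% with whole-number values alone, and that at 96178501 of chromosome 11 had 5.49%, 5.26% and 5.48%, all of them single A. The start at 39979943 of chromosome 17 had 12.9%, 25.2% and 18.9%, with 47.8% of its tails longer and of A only. The first of these lay close together between libraries and the last spread widely.

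Close to the threshold of 2%, the starts just inside were Gm24463, a snoRNA, at 2.01%, a further start on chromosome 9 with the same reads, and an unnamed start on chromosome 2 at 2.00%, which was at 1.06% without replicate 2. Those just outside that passed the other conditions were an unnamed start on chromosome 17 at 1.996%, n-R5s28, a 5S rRNA, at 1.97%, and let-7g-5p shifted by -1 at 1.96%. Membership at these starts thus hung on small differences in share.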

How the data were processed

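Small RNA from 3 MIN6 libraries had been prepared with the TruSeq small RNA kit. According to the study's methods and the submitters' processing notes, the authors trimmed adaptors with cutadapt, aligned reads exactly with Bowtie, and aligned the remaining reads with SHRiMP to windows near exact matches, with mismatches allowed at the 3′ end by read length. The values deposited by the authors are expected counts, the reads behind each alignment, divided among equally good loci and not normalized (mm9). Reads without a nearby exact match were lost, and divided reads make gene copies inseparable.

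Starts were summed over libraries, and A-ending reads were those whose mismatch string ended in A. Exact alignments ended 1 base early and were corrected. RNAs were named by comparing bases excluded by mismatches with 1005 RefSeq hairpins and 5140 GENCODE RNAs (GRCm38, sequences only), at 12 bits where a mature miRNA lay within 1 nt of a start and 25 bits elsewhere, which named 204 and 443 loci (2 and 0 with reversed sequences). Python 3.11.15, pandas 2.3.3, numpy 2.4.6 and matplotlib 3.10.9 were used, and the tail reading was tested on simulated data. Each share is given per library or as mean ± SD, with Wilson 95% intervals for some. Intervals cover counting error only, since reads carry no molecular identifiers, and 0 reads allow up to 3 (0.324 RPM in the smallest library). Named starts were the 12 miRNA starts with the highest share, the 10 with the most A-ending reads, shared seeds, threshold neighbours, multi-base tails, neighbouring starts on the arms, starts outside hairpins with 100 or more A-ending reads, and miR-375, miR-21a and miR-122. Others named were chosen after their values were seen. The starts, lists and marker miRNAs were chosen with earlier results of these data known. No p-values are given, because all libraries share 1 condition.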

Additional observations from a re-analysis of the deposited data

How the results depend on the processing

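No paired analysis was possible because the 3 replicates form a single group. The main values were 221 starts (28 on 5p and 16 on 3p arms), a median share of 3.81%, 5.42% A-ending reads pooled, 82.9% single-base tails, an A to T ratio of 4.33 and a length difference of 0.05 nt between A-ending and exact reads. With every deposited length, 489 starts met the rule (28 on 3p arms), with a median share of 4.37%, 7.04% pooled, a ratio of 7.57 and a length difference of 2.46 nt. At 18 to 25 nt the pooled share was 5.18%. With 100 reads there were 376 starts (27 on 3p arms, median 4.59%), and with 1000 reads 75 (7 on 3p arms, median 3.26%, ratio 3.65). At 1% the median was 2.79%, with 47 starts on 5p arms and 87.7% single-base tails. At 5% there were 92 starts (10 on 5p and 5 on 3p arms), a median of 8.69%, 78.2% single-base tails and a ratio of 11.5. Without the condition on T there were 396 starts (72 on 5p and 100 on 3p arms). Whole-number values gave 128 starts, a median of 4.69%, 85.2% single-base tails, a length difference of 0.40 nt and 4.83% pooled, and they keep some reads divided between a pair of loci. The pooled share was 5.0% without internal mismatches, 5.16% with tails of A only and 5.81% (median 4.62%) with the C-ending share subtracted. For each of these values the rule was applied anew, so the starts differ from the 221 and the values do not show a change at the same starts. Named miRNA arms alone gave 44 starts and 3.48% pooled, and arms summed over their starts gave 34 and 3.67%.

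These values were added after seeing the data. Starts with 10% or more exact reads had 81.3% single-base tails, a length difference of 0.72 nt, 4.47% pooled and a ratio of 3.496. Starts with identical reads counted once had a median of 4.27%. Named miRNA hairpins alone had 86.4% single-base tails, a length difference of 0.99 nt and a ratio of 2.171.

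Leaving out each library in turn gave at least 162 starts, 24 to 29 on 5p and 12 to 15 on 3p arms, medians of 3.48% to 3.66%, 82.6% to 83.9% single-base tails, pooled shares of 5.15% to 5.47%, ratios of 4.02 to 4.45 and length differences of -0.013 to 0.086 nt. The length difference turned negative without replicate 1 (-0.0082 nt) and without replicate 2 (-0.013 nt). The start on chromosome 5 with no read in replicate 1 and that on chromosome 3 with reads in replicate 1 alone depend on those libraries. With the C-ending share subtracted, the share turned negative at miR-378d (-42.0), Mir455 3p arm (-15.6) and its -1 start (-1.51), the unnamed start at 31161459 of chromosome 19 (-4.48), miR-483-3p+1 (-1.87), miR-21a-5p (-2.82) and miR-21a-5p-1 (-2.98). It was 23.6 at position 16188 and 17.5 at 3771 of the mitochondrial genome, 29.4 at 2238, and 4.24 at Mir383 5p arm-1. At 18 to 25 nt Gm24463 had no A-ending read. The cause of these changes was not tested. Depth limited the 83 starts with fewer than 20 A-ending reads most.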
